A study of Mus musculus with 2 samples.

Results

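The proteasome subunit genes were taken as the protein-coding genes of the GENCODE M21 annotation whose symbols start with Psma, Psmb, Psmc, Psmd, Psme or Psmg followed by a digit. There were 49 such genes, including Psmc3ip, which is not a subunit, among 21938 protein-coding genes on the chromosomes covered by the peak lists. Their promoters were read from DNase-seq, an assay in which DNase I cuts DNA that is accessible in chromatin, so that open regions appear as peaks of cuts and protected stretches inside them as footprints. The data were 2 libraries of the same single group: female B6CASTF1/J mice (an F1 hybrid strain) aged 25 days, with no treatment or engineered allele named in the labels. The tissue is labelled as a layer of hippocampus without naming which one, and is described elsewhere in the labels as hippocampus. The libraries are biological replicates 1 and 2 of separate tissue samples that carry the same donor entry, and whether they came from different animals is not stated. With no second group there was no contrast between conditions, so all values below are descriptions and no test was made.

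The proteasome degrades proteins that carry ubiquitin chains. Its 20S core is a barrel of stacked rings: alpha subunits (Psma genes) form the outer rings and gate the entrance, and beta subunits (Psmb genes) form the inner rings and hold the proteolytic sites. The 19S particle caps the core: its ATPases (Psmc genes) unfold substrates, and its other subunits (Psmd genes) bind and remove ubiquitin. Psme genes encode activators that open the core without the 19S particle, and Psmg genes encode chaperones that assemble it. Interferon replaces the catalytic beta subunits Psmb5, Psmb6 and Psmb7 with Psmb8, Psmb9 and Psmb10 to form the immunoproteasome, which favours peptides for MHC class I. Psma8 takes the place of Psma7 in male germ cells, and Psmb11 is the catalytic form of cortical thymic epithelium. In neurons, proteasome activity is known for its part in protein turnover at synapses.

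A promoter was called open when a peak of the strict list (the shorter of the peak lists deposited for each library) overlapped the 500 bp either side of any annotated start in both libraries. By that rule 46 of the 49 proteasome genes were open (93.9%), beside 54.2% of all protein-coding genes. The same 46 were open in each library alone, where 60.2% and 54.8% of all protein-coding genes were open in replicates 1 and 2. The 3 genes without a peak were Psma8, Psmb11 and Psme2b. Of the immune and testis forms 3 of 4 were open (Psmb8, Psmb9 and Psmb10, not Psma8), and of the other proteasome genes 43 of 45.

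Sequences are shown first for the consensus that was most frequent in these promoters relative to all promoters, the ETS-family core CCGGAAG. It was among 16 consensus words searched on both strands in the RefSeq promoter sequences (GRCm38.p6, 250 bases before to 50 bases after the start), which were matched by symbol for 41 of the 49 genes and for 16538 protein-coding genes. CCGGAAG was present in 15 of 41 proteasome promoters (36.6%), beside 12.6% of all promoters. Among open genes alone it was present in 15 of 39 proteasome promoters (38.5%) and in 19.6% of all open promoters. The 15 include Psmc3ip, which matches by symbol only. The lines below give, from the reference genome (the same build) and on the strand of the gene, stretches around footprints found in both libraries, with CCGGAAG or its reverse complement CTTCCGG in capitals. A footprint was taken as found in both when the overlap reached 50% of the shorter one, and each was widened by 8 bases on either side for the search. The bases are those of the reference, and the other allele of the hybrid mice was not read.
Psme4, chr11:30771695-30771736, plus strand: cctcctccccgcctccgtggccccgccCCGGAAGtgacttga
Psmc6, chr14:45329717-45329749, plus strand: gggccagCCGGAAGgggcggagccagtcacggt
Psme3, chr11:101316194-101316227, plus strand: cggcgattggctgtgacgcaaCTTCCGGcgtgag
Psmd7, chr8:107588430-107588459, minus strand: caaaCCGGAAGgggaggtgctggggcctgg
Psmc1, chr12:100110171-100110200, plus strand: gcaCTTCCGGcggtggcgatttggaggact
Psmd6, chr14:14120958-14120993, minus strand: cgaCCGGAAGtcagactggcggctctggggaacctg
Psme2, chr14:55591538-55591561, minus strand: aaactatcccgcccCTTCCGGagg
Psmd13, chr7:140882366-140882395, plus strand: catgccccgcgcgcccgcggtgCCGGAAGt
Psmc3ip, chr11:101095435-101095485, minus strand: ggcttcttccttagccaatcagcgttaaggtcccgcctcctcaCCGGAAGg
In Psme4 all 7 bases of the word lay inside the joined span, in Psmc6 6 and in Psme3 5. The footprint of replicate 1 alone held fewer of them in Psme4, and that of replicate 2 alone held fewer in Psmc6. In Psmd7 the joined span held 3 bases, and in Psmc1, Psmd6 and Psme2 2. In Psmd13 and Psmc3ip the word lay in the added flank, next to the footprint. Psmb10, shown further on, held all 7 bases in its joined span. They lay in the footprint of replicate 2 and outside that of replicate 1. Most of these words sat close to a start. The footprint of Psme4 ran from 23 bp before to 2 bp after the start, that of Psme3 from 11 bp before to 6 bp after, and that of Psmc6 from 63 to 47 bp before. The exception was Psme2, whose footprint lay 440 to 433 bp before the start, in a second peak on the side of the divergent gene Rnf31.

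The promoters of Psmb2, the proteasome gene with the highest mean percentile of signal, and of the immune forms Psmb8 and Psmb10 are shown as the 150 bases before the start nearest to their strongest peak, with matches in capitals. The bases of Psmb2 and Psmb8 lie outside annotated genes. Those of Psmb10 lie in an intron of that gene and inside the overlapping gene Gm16156. For Psmb9, whose peak lies over the first exon of its longest transcript, only 30 bases around a footprint of both libraries are shown.
Psmb2, chr4:126677480-126677629, plus strand: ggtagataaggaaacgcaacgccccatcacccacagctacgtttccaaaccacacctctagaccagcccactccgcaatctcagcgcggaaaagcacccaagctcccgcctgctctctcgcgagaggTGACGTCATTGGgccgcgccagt
Psmb8, chr17:34197571-34197720, plus strand: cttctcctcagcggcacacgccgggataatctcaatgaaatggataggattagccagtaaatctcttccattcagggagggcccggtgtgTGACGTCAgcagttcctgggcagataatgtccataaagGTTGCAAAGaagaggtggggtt
Psmb10, chr8:105937039-105937188, minus strand: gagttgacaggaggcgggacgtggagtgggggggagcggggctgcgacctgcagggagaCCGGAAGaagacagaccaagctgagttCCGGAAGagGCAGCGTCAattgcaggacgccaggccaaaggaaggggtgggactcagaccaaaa
Psmb9, chr17:34187368-34187397, minus strand: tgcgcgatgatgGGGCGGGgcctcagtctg
The capitals in Psmb2 join the cAMP response element TGACGTCA to a reverse CCAAT box, which share 1 base. Those in Psmb8 are TGACGTCA and a match to the RFX word GTTGCNANG. Psmb10 shows CCGGAAG at 2 places, the nearer of them beside a reverse match to the antioxidant response element (ARE) word TGACNNNGC, and Psmb9 shows the SP/KLF word GGGCGGG. The TGACGTCA of Psmb8 lay in a footprint of both libraries 68 to 34 bp before the start, and that of Psmb2 in one 30 to 4 bp before. This likeness was picked out after the values were seen. TGACGTCA occurred in footprints of 2 of the 46 open proteasome genes (4.35%) and of 4.81% of all open genes.

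The deposited signal of a gene's strongest promoter peak was the measure of strength. Its scaling is not stated, so genes are also placed by percentile among all open protein-coding genes of the same library. The median over the 46 open proteasome genes was 4.97 in replicate 1 and 2.05 in replicate 2, beside 4.30 and 1.80 over all open genes. Their median percentile was 60.0 and 59.8, and 25 of the 46 were above the middle of both libraries. The proteasome promoters as a set therefore lay only a little above the middle of open promoters. In a bulk library, a weaker peak cannot be told apart from a peak present in fewer of the cells.

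**Figure D1:**
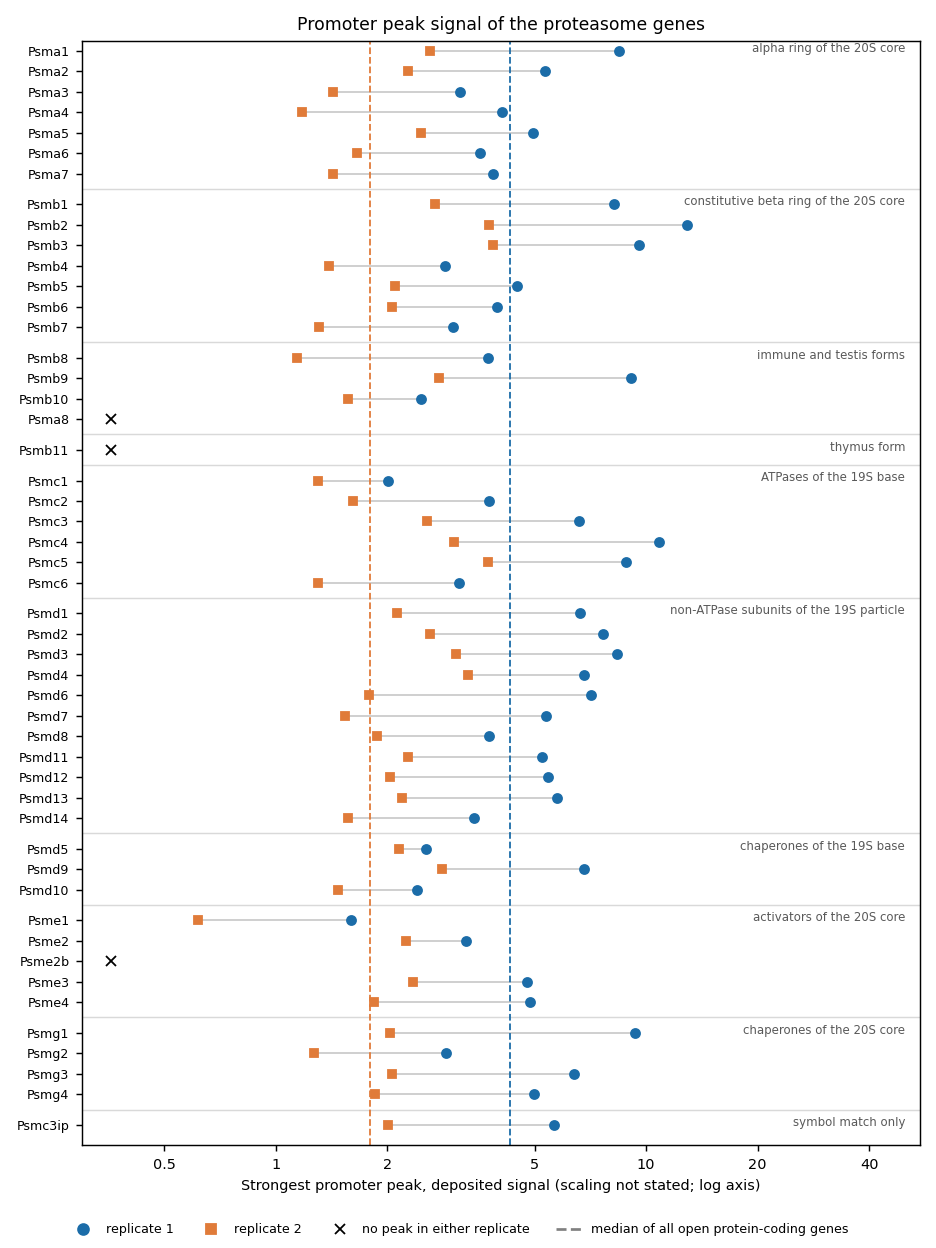
Deposited signal of the strongest promoter peak of each proteasome gene (log axis; circles replicate 1, squares replicate 2, crosses no peak), grouped by role, with the medians of all open protein-coding genes as dashed lines. Psmb2 has the highest value in replicate 1 and Psme1 the lowest in both, and Psma8, Psmb11 and Psme2b have no peak.

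All 7 alpha subunits of the 20S core were open, with medians of 4.08 and 1.66, slightly under those of all open genes. The strongest was Psma1 at 8.45 in replicate 1 and 2.61 in replicate 2. Psma6 stood at the middle of the ring with 3.55 and 1.66. Psma3 was lowest by percentile with 3.15 and 1.43, close to Psma6 in both libraries. Psma7, which Psma8 replaces in male germ cells, had 3.85 and 1.43. The 2 libraries did not order the ring alike: Psma4 was above Psma6 in replicate 1 (4.08) and lowest of the ring in replicate 2 (1.18).

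All 7 constitutive beta subunits were open, with medians of 4.48 and 2.10, and they spanned most of the range of the whole set. Psmb2, a structural subunit of the inner ring, had 12.9 and 3.76, at percentiles 98.8 and 96.9. Psmb3, also structural, had 9.57 and 3.86, the highest value of any proteasome gene in replicate 2. At the other end Psmb7, which carries the trypsin-like site, had 3.01 and 1.31. Psmb4 was next to it with 2.86 and 1.39. The other catalytic subunits lay between: Psmb5 (chymotrypsin-like site) had 4.48 and 2.10, and Psmb6 (caspase-like site) had 3.96 and 2.06. Psmb5 was thus slightly above Psmb6 in both libraries.

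The immune forms did not form a group by signal. Psmb9 had 9.08 in replicate 1 and 2.76 in replicate 2, at percentiles 92.7 and 82.4, which ranked it sixth among open proteasome genes. Psmb8 had 3.74 and 1.14, at percentiles 41.2 and 24.5. Psmb10 had 2.46 and 1.57, at percentiles 22.6 and 41.0. Each immune form can be set beside the constitutive subunit it replaces: Psmb9 was above Psmb6 in both libraries, Psmb8 was under Psmb5 in both, and Psmb10 was under Psmb7 in replicate 1 and above it in replicate 2. With 1 value per library these orders have no error of their own.

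Where the peak lies differed between the 3 immune forms. At Psmb9 (chr17:34181987-34187764, minus strand) it ran from 244 to 403 bp after the outermost start in replicate 1 and from 204 to 423 bp in replicate 2. It so ended among the internal starts. The nearest of these, at 399 bp, lies 188 bp from the start of Tap1, the divergent gene for a subunit of the peptide transporter. Tap1 is read from the same peak with the same 9.08 and 2.76, and in replicate 2 the peak covered that start of Tap1. Which of the 2 genes the peak serves was not tested. At Psmb8 (chr17:34197721-34201454, plus strand) it ran in replicate 1 from 140 bp before to 39 bp after the outermost start, which is 474 bp before the RefSeq start. At Psmb10 (chr8:105935735-105938444, minus strand) it lay 1124 to 1483 bp inside the gene in replicate 1 and 1024 to 1463 bp in replicate 2, and the start nearest to it belongs to a retained-intron transcript. At the outermost start of Psmb10 no strict peak was found, and the longer lists gave 1.09 and 0.735. With starts of basic transcripts only (the annotation's own set of representative transcripts), or with the outermost start alone, Psmb10 was not open and 2 of the 4 immune and testis forms were, beside 52.4% and 48.8% of all genes.

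**Figure D2:**
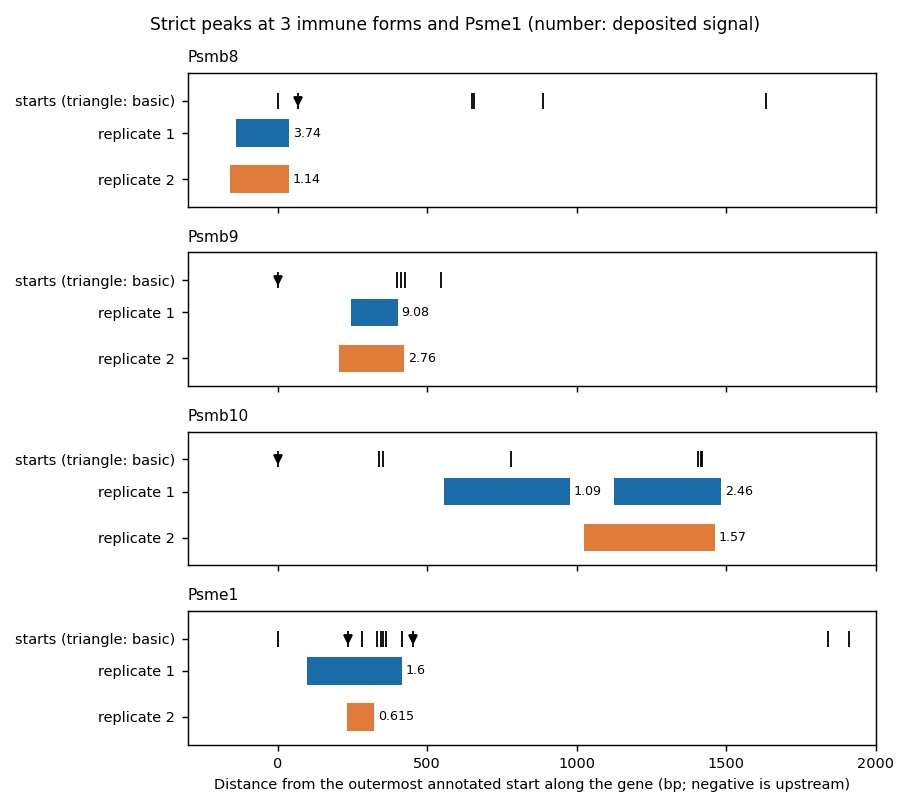
Strict peaks (bars, with the deposited signal beside each) and annotated starts (ticks; triangles mark starts of basic transcripts) along Psmb8, Psmb9, Psmb10 and Psme1, in bp from the outermost start. The strongest peak of Psmb10 lies over internal starts at about 1406 bp. The peak of Psmb9 ends among the internal starts on 1 side, and on the other it covers the start of Tap1 (not drawn) in replicate 2.

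Psma8, Psmb11 and Psme2b had no peak in either list of either library, although 59.7% of all protein-coding genes were open by the longer lists. No base of their promoter windows reached a cut-rate false discovery rate of 0.05 in either library. That was also so for 73.2% of the 10048 protein-coding genes that were not open. For Psma8 (56151 bp long) no peak lay inside the gene, and the nearest strict peak was 22871 bp from a start in replicate 1 and 22831 bp in replicate 2. For Psmb11 the nearest peak was 3293 bp away in both libraries and is the promoter peak of Psmb5, its constitutive counterpart on the opposite strand. For Psme2b the nearest strict peak was 71450 bp away in replicate 1 and 89171 bp in replicate 2, and the nearest peak of the longer lists 50727 and 37850 bp. Psme2b is a gene of 837 bp named as a copy of Psme2, and how reads matching both genes were placed is not stated.

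The tissue's own markers set these values in context. All 10 pan-neuronal genes of the list were open, where 54.2% of all protein-coding genes were. Of the hippocampal and forebrain factors, Zbtb20 was open at percentiles 83.8 and 97.7 and Neurod2 at 34.9 and 36.3, while Prox1, which marks dentate granule cells, had a strict peak in replicate 2 only (0.855) and a peak of the longer list in replicate 1 (1.74). Of other cell types, 0 of 10 blood cell genes were open and 1 of 10 male germ cell genes (Dazl, 2.07 and 0.930). Of 5 thymic epithelial genes 2 were open (Ccl25 and Aire), a share of 40% beside the same 54.2%. The defining microglial genes Cx3cr1, P2ry12 and Csf1r and the leukocyte gene Ptprc had no strict peak at any start in either library. The part of other cell types in the signal at the immune forms was not tested.

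All 6 ATPases of the 19S base were open, with medians of 5.17 and 2.09. Psmc5 had 8.81 and 3.73 and Psmc4 had 10.8 and 3.02, both at percentile 87.9 or higher in each library. Psmc3 and Psmc2 stood on either side of the middle with 6.58 and 2.56, and 3.76 and 1.62. A second RefSeq start of Psmc2, 1464 bp further in and not among its GENCODE starts, had a stronger strict peak of 6.32 and 2.01. Psmc1 was the weakest with 2.01 and 1.30, at percentiles 16.3 and 30.1. Genes whose products join in 1 ring in equal numbers thus spanned a range of 2.01 to 10.8 in replicate 1.

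The 11 non-ATPase subunits were all open and had the highest medians of the role groups with 6 or more genes, 5.76 and 2.12. Psmd3, a scaffold subunit of the lid, had 8.32 and 3.06. Psmd4, a ubiquitin receptor, had 6.79 and 3.31, and Psmd2, the large subunit that docks ubiquitin shuttle factors, had 7.66 and 2.61. Psmd6 was at the middle with 7.11 and 1.78, high in replicate 1 (percentile 83.1) and at percentile 49.4 in replicate 2. Psmd14, the deubiquitinase of the lid, was the lowest by percentile with 3.43 and 1.57.

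The dedicated chaperones that build the 19S base, Psmd5, Psmd9 and Psmd10, were open with medians of 2.55 and 2.15. Psmd9 was the strongest with 6.79 and 2.81. Psmd10 (gankyrin) had 2.41 and 1.47. Psmd5 had 2.55 and 2.15, the smallest gap between the libraries of any open proteasome gene (0.25 on the log2 scale, beside a median of 1.29). Its peak was 80 bp wide in replicate 1 and 500 bp wide in replicate 2.

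Of the 5 activator genes 4 were open. Psme3, the nuclear activator, had 4.76 and 2.35, and Psme4 had 4.86 and 1.84. Psme2 had 3.26 and 2.24, but its strongest peak in replicate 1 lay at its start and in replicate 2 on the side of Rnf31. Psme1, the interferon-inducible partner of Psme2, had 1.60 and 0.615, at percentiles 10.8 and 5.69, the weakest open proteasome gene in both libraries. It was also the only open one with no footprint in replicate 2 (7 in replicate 1).

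The 4 assembly chaperones of the 20S core were open with medians of 5.70 and 1.94. Psmg1 had 9.33 and 2.04, at percentiles 93.5 and 59.5, the largest gap between the libraries of the set (2.19 on the log2 scale). Psmg3 had 6.40 and 2.06, Psmg4 4.99 and 1.85, and Psmg2 2.89 and 1.27. Psmc3ip, which matches by symbol only and encodes a meiotic recombination factor rather than a subunit, was open with 5.64 and 2.01. Its values were within the range of the true subunits.

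Across the 46 open proteasome genes the libraries ordered the signals alike to a degree given by Spearman's rho = 0.793, beside 0.858 over all open protein-coding genes. The genes share libraries and are not replicates. The median log2 ratio of replicate 1 to replicate 2 was 1.29, beside 1.24 over all open genes, so the offset between the libraries was that of the whole lists. Psmb2, Psmb3, Psmc5, Psmc4, Psmd3 and Psmb9 were the 6 highest by mean percentile. The 6 lowest were Psme1, Psmc1, Psmg2, Psmd10, Psmb7 and Psmb4.

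**Figure D3:**
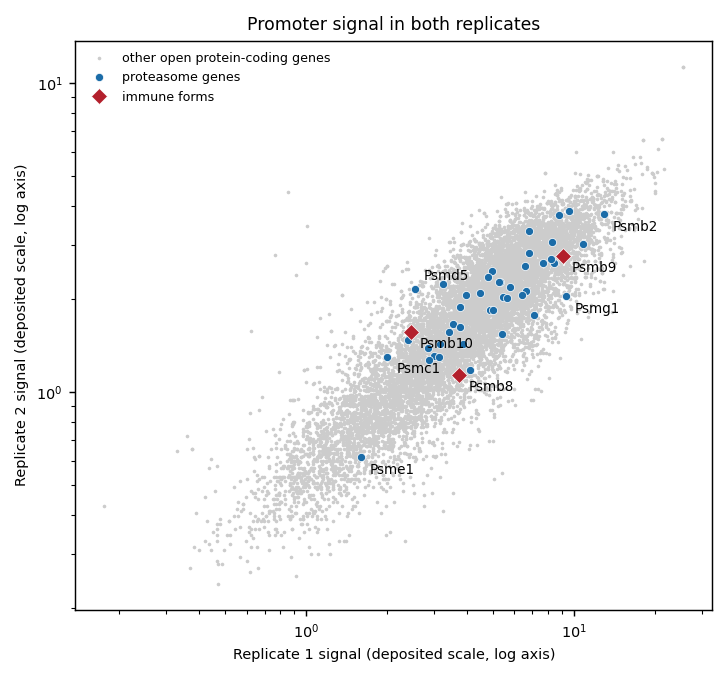
Deposited promoter signal in replicate 1 (x) and replicate 2 (y), both on log axes, for open protein-coding genes (grey), proteasome genes (blue) and the open immune forms (red diamonds). Psmb9 lies among the strong promoters, Psmb8 and Psmb10 on opposite sides of the main trend, and Psme1 at the low end.

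Proteasome peaks were placed tightly on the starts. The midpoint of the strongest peak in replicate 1 was within 100 bp of a start in 41 of 46 genes (89.1%), beside 72.5% of all open genes, and the median distance was 20 bp beside 50 bp. Peak widths had medians of 200 and 240 bp, beside 220 and 260 bp. The proteasome genes also had more annotated starts than other genes (median 5 beside 3), and the part of this in the distances was not tested. Of all genes with 7 or more starts 86.7% were open, and 16 of 16 proteasome genes in that class.

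The place of the used start was ordinary for most genes but not for all. With only the outermost start of each gene, 42 of 49 proteasome genes were open (85.7%, beside 48.8% of all genes). Psma6, Psmd5, Psmd9 and Psmb10 were the genes lost. The peak of Psma6 was at a start 14573 bp inside its outermost transcript, that of Psmd5 at 4006 bp and that of Psmd9 at 58845 bp. For Psmd5 and Psmd9 a RefSeq start lies at or near the peak, and for Psma6 1 of its RefSeq starts does.

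CpG content was that of open promoters in general. The ratio of observed to expected CpG in the 1001 bp around the start had a median of 0.72 over open proteasome genes and of 0.75 over all open genes. With all genes split into 5 equal classes by this ratio, in the 2 classes richest in CpG 18 of 18 and 11 of 11 proteasome genes were open, where 86.5% and 91.7% of all genes were. In the middle class 14 of 15 were open beside 69.8%, and in the second-poorest 3 of 4 beside 20.8%. The only proteasome gene in the poorest class was Psmb11, where 2.23% of all genes were open. The open genes of the second-poorest class were Psmd10, Psme1 and Psme2, with ratios of 0.41, 0.40 and 0.43.

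A divergent protein-coding partner with a start within 1000 bp upstream was present for 10 proteasome genes (20.4%), beside 9.89% of all protein-coding genes. Among open genes the shares were 21.7% and 16.9%. The partners were Mrpl32 (with Psma2), Ss18l1 (Psma7), Tbp (Psmb1), Tap1 (Psmb9), Dnajc2 (Psmc2), Ftsj3 (Psmc5), Sirt3 (Psmd13), Atg4a (Psmd10), Rnf31 (Psme2) and Cep76 (Psmg2). For Psmc2 the starts were 32 bp apart and for Psme2 621 bp. No peak was shared by 2 proteasome genes.

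Footprints were found within 500 bp of a start in both libraries for 45 of 49 proteasome genes (91.8%), beside 56.9% of all genes. A pair that overlapped by 50% of the shorter was found for 42 (85.7%), beside 49.5% of all genes. Among open genes that share was 91.3% for proteasome genes and 89.0% for all, so that it was near the background once openness was matched. The proteasome genes held 305 footprints in replicate 1 and 224 in replicate 2, with a median width of 11 and 9 bp. Within 100 bp of a start lay 68.5% and 68.3% of them, beside 56.1% and 57.6% at all open genes. Psmb1 had 7 footprint pairs that overlapped between libraries, the most of the set. They were split between its outermost start (peak signal 8.19 in replicate 1) and a separate strict peak 1331 to 1510 bp further in (7.30). Psma4, Psmb4, Psmd8 and Psme1 were open with no such pair.

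**Figure D4:**
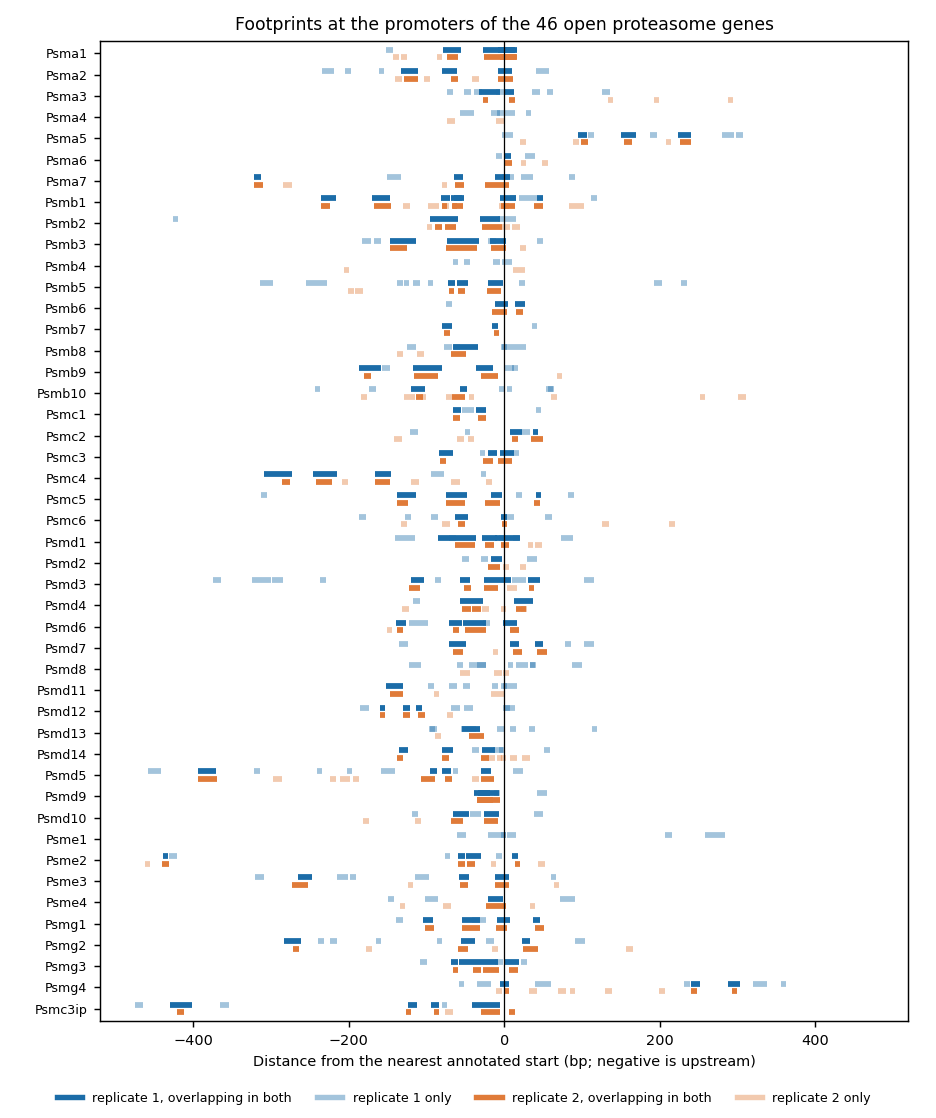
Footprints at each of the 46 open proteasome genes, in bp from the nearest annotated start, for replicate 1 (blue) and replicate 2 (orange). Solid bars overlap between the libraries and pale bars do not. Most of them lie within 100 bp of the start, and Psme1 has none in replicate 2.

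For several of the searched words the shares were close to those of all open promoters, and others differed on small counts. The SP/KLF word GGGCGGG was in 17 of 39 open proteasome promoters (43.6%, beside 50.2% of all open ones), and CCAAT in 13 (33.3%, beside 39.9%). The ARE word TGACNNNGC, which the proteasome regulator Nfe2l1 binds with small Maf proteins, was in 6 (15.4%, beside 14.7%). The YY1 word AAGATGGC was in 3 (7.69%, beside 5.08%). The TATA word TATAAA was in 4 (10.3%, beside 5.98%) and GCGCATG in 5 (12.8%, beside 8.15%). The RFX word was in 1 (2.56%, beside 5.41%), and TGACGTCA in 0 (beside 3.73%). The TGACGTCA printed above for Psmb2 and Psmb8 could not be counted here, nor could the RFX word of Psmb8. Psmb2 had no matched RefSeq promoter, and the bases searched for Psmb8 did not reach those words. The word of nuclear respiratory factor 1, GCGCATGCG, was in 2 (5.13%, beside 4.34%). That factor is not the same as Nfe2l1, which is also called NRF1. The interferon-response word GAAANNGAA was in 6 (15.4%, beside 6.37%), and in footprints of 2 of the 46 open genes (4.35%, beside 2.61%). The 6 promoters were those of Psmb3, Psmb4, Psmd4, Psmd9, Psme1 and Psmg4, and none was that of Psmb8, Psmb9 or Psmb10. The bases searched for Psmb8 and Psmb10 lay at their RefSeq starts and did not reach their strict peaks. Footprints of these 3 immune forms held no match to the word either. The words can overlap one another, such as TGACGT with TGACGTCA and GCGCATG with GCGCATGCG.

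**Figure D5:**
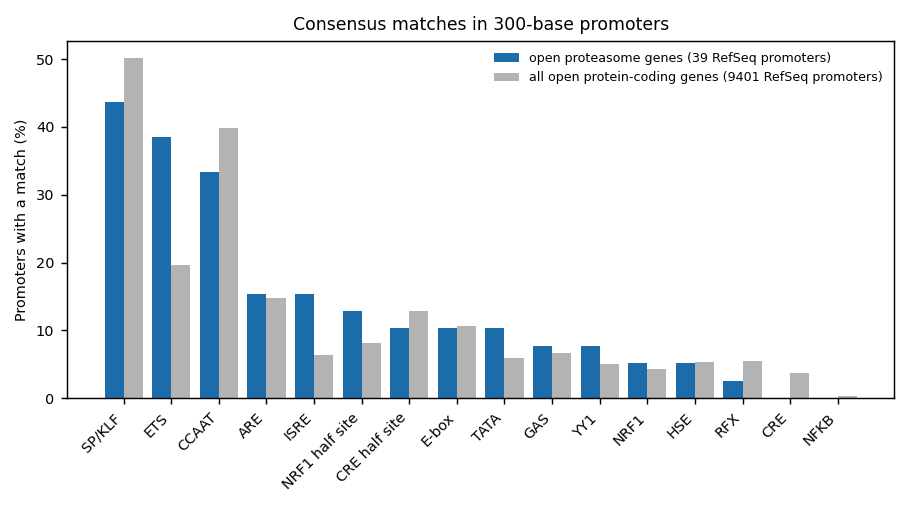
Share of RefSeq promoters with a match to each of 16 consensus words on either strand, for 39 open proteasome genes (blue) and 9401 open protein-coding genes (grey). The ETS and ISRE (interferon-response) bars stand farthest above those of all open genes, and the SP/KLF and CCAAT bars under them, an order that turned in footprints (54.3% beside 49.9% and 34.8% beside 29.4%).

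In footprints the order was similar for the ETS word: it lay in a footprint of either library in 15 of the 46 open proteasome genes (32.6%), beside 15.2% of all open genes. The YY1 word lay in footprints of 6 (13.0%, beside 4.68%), namely Psmb5, Psmb6, Psmc5, Psmd7, Psmd8 and Psmd11. The GAS word TTCNNNGAA, bound by STAT factors, lay in footprints of 6 (13.0%, beside 2.98%) but in RefSeq promoters of 3 of 39 (7.69%, beside 6.66%). The 6 were Psmb5, Psmb8, Psmb10, Psmd1, Psmd2 and Psmd3. Each of these counts is small. The ARE word lay in footprints of 7 (15.2%, beside 11.1%). These were Psmb5, Psmb6, Psmb10, Psmc6, Psmd3, Psmd7 and Psmd9. In 4 of them it was in a footprint found in both libraries. Those 3 not yet printed are given here with the word or its reverse complement in capitals, a choice made after the values were seen.
Psmb5, chr14:54618016-54618052, minus strand: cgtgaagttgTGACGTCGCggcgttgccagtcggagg
Psmb6, chr11:70525344-70525379, plus strand: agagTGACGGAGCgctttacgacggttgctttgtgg
Psmd9, chr5:123228148-123228183, plus strand: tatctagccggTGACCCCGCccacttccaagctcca
In Psmb5 and Psmd9 all 9 bases lay in the joined span of both libraries, and in Psmb6 5 of 9. The spans of Psmb5 and Psmd9 ran 22 to 2 bp and 34 to 15 bp before the nearest start. Psmb10, shown above, is the fourth, with 8 of 9.

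The other genes of the pathway were open almost throughout. Of the proteasome partners outside the symbol rule, 21 of 21 annotated genes were open (54.2% of all protein-coding genes were), with medians of 5.74 and 1.88. They include the ubiquitin ligase Ube3c (7.26 and 3.07), the deubiquitinases Uchl5 (9.85 and 3.71) and Usp14 (4.15 and 1.64), the assembly factor Pomp (3.89 and 1.74) and the shuttle factor Rad23b (12.9 and 4.70). Of the regulators of proteasome transcription 9 of 9 were open, with lower medians of 3.53 and 1.51. Nfe2l1 had 4.94 and 3.33, and its processing enzymes Ddi2 and Ngly1 had 3.54 and 1.67, and 3.29 and 1.17. All 6 ubiquitin and E1 genes were open, from Ubb (10.4 and 3.77) to Uba1 (2.05 and 1.25).

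Of 20 genes of antigen presentation and the interferon response, which the immunoproteasome serves, 13 were open (65%), near the 54.2% of all protein-coding genes. B2m had 5.65 and 2.03 and Tapbp 5.18 and 2.09. Tap2, beside Psmb8 and Psmb9 in the MHC region, stood at percentiles 72.9 and 26.1. Isg15, Irf7, Ifit1, Ifit3, Gbp2 and Ciita had no strict peak in either library. Of the MHC class I genes H2-K1 and H2-D1, H2-K1 had one in replicate 1 only (1.56). H2-D1 was open with 12.9 and 2.28, at percentiles 98.8 and 68.3.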

How the data were processed

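DNase-seq of 2 libraries was analysed from the files that the authors deposited per library: 2 peak lists, footprints and per-base cut-rate values on mm10, per the labels. The deposited signal of each peak is the authors' own value, and its scaling, aligner and caller were not stated in the labels or files. The deposited p-value column (a false discovery rate) of the cut-rate files reached 0.05 at most, and that of the footprint files was constant, so footprints were not ranked. The strict list held 61466 peaks in replicate 1 and 50379 in replicate 2, the longer list 104506 and 91751, and the footprint files 236942 and 159538 footprints. Depth is unknown from these files, and having 2 libraries limits the precision.

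Genes came from GENCODE M21 (GRCm38.p6, the build of mm10), leaving out 13 mitochondrial genes. A gene's signal was its highest strict peak within 500 bp of any annotated start. Promoter sequences came from RefSeq. Shares are described beside those of all protein-coding genes or all open ones, with no test. Values are named for every gene without a peak, the immune, testis and thymus forms, the 6 strongest and 6 weakest, and the strongest, middle and weakest of each role group. The members, lists and words were chosen with earlier results of these data known. The search for peaks at genes was tested on simulated peaks. Alternatives varied the list, window, starts, peak strength, libraries and motif window. Python 3.11.15, numpy 2.4.6, pandas 2.3.3, scipy 1.17.1, matplotlib 3.10.9 and pysam 0.24.0 were used. The symbols Shfm1, Paaf1 and AI314180 of the lists are not in the annotation. Some genes of the marker lists are not reported here.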

Additional observations from a re-analysis of the deposited data

How the results depend on the processing

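The share of proteasome genes open in both libraries was 93.9% with the longer lists (beside 59.7% of all protein-coding genes), with windows of 250 bp (52.7%) or 2000 bp (57.8%), with peak midpoints (53.7%) and in replicate 2 (54.8%) or replicate 1 alone (60.2%). It was 91.8% with basic transcript starts (52.4%) or with the stronger 50% of the peaks (47.1%, which left out Psme1), and 85.7% with the outermost start alone (48.8%). The share of immune and testis forms was 75% except with basic or outermost starts, where it was 50%. The median signal ranged from 4.97 to 5.80 in replicate 1 and from 2.04 to 2.14 in replicate 2, the upper values from summing the peaks of a gene. With summed peaks the replicate 2 median was under that of all open genes (2.17). The share with a footprint in both libraries ranged from 83.7% with the outermost start (beside 50.7% of all genes) to 93.9% in replicate 1 alone (63.2%). The ratio of the ETS share to that of all open genes was 1.96 in RefSeq promoters, 1.75 in 1001 bp around the start and 2.14 in footprints. The ratio for the ARE word was 1.05, 1.60 and 1.37, for YY1 1.51, 2.06 and 2.79, for nuclear respiratory factor 1 1.18, 0.768 and 0.813, for CCAAT 0.836, 0.917 and 1.18, and for SP/KLF 0.868, 0.926 and 1.09, and the cause of these shifts was not tested. No paired analysis was possible because the libraries form 1 group.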
